A study of Schmidtea mediterranea with 11 samples.

Results

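The transcriptomes of planarians in which the CELF gene bruli was knocked down were compared directly with those of planarians in which the mbnl genes were knocked down, day by day. The comparison used 6 of the 11 libraries of the series, which were the 3 bruli(RNAi) and the 3 mbnl(RNAi) libraries of days 20, 25 and 30, and the 15510 of 26562 transcripts whose mean log2(TPM+1) over these 6 libraries was above 1.5. TPM is a transcript's length-scaled share of its library. All worms were adult asexual Schmidtea mediterranea of the Berlin-1 strain, a clonal line raised from a single individual, and whole worms gave the RNA. The bruli(RNAi) worms received double-stranded RNA against bruli, the mbnl(RNAi) worms received a mix against 4 genes, namely mbnl-1 and the mbnl-like genes numbered 1, 2 and 3, and the control(RNAi) worms received double-stranded RNA of gfp, which planarians lack. All 3 groups were injected on consecutive days. The 3 control(RNAi) libraries are given beside the other 2 groups for orientation only.

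CELF and MBNL proteins are RNA-binding proteins (RBPs) that choose which exons enter an mRNA, and in vertebrates they often act in opposite directions on the same exons. Planarians keep a large population of dividing pluripotent stem cells, the neoblasts, whose progeny replace all tissues. bruli is expressed in neoblasts, while mbnl transcripts are more abundant in differentiated cells. The comparison asks where the whole-worm transcriptomes after loss of either factor differ. A whole-worm library cannot tell apart fewer cells of a type and less RNA per cell.

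The primers listed for the double-stranded RNAs of both groups are shown because they define what was targeted. A second pair, mbnl-1*, is listed for the mbnl-1 locus, which carried more than one transcript name in an older assembly. Each pair has a first and a second primer of 22 bases. All are written 5′ to 3′ in lower case, and the capitals in the second primers of bruli and celf-1 mark the run of 12 bases that these primers share.
bruli, first primer: ctccactcgtaaattccagtcc
bruli, second primer: CTCCCTTTGGTCgttttaattg
celf-1, second primer: gtctcCTCCCTTTGGTCttttt
mbnl-1, first primer: tgctatagcgccatattctcaa
mbnl-1, second primer: gctgatcttgctggaattaggt
mbnl-1*, first primer: acggaacccagatcaattacag
mbnl-1*, second primer: caccaggcaataaagtatgcaa
mbnl-like-1, first primer: ttccacagcttctaacgatcaa
mbnl-like-1, second primer: ctattggaagccactgaaatcc
mbnl-like-2, first primer: gcggacgagtgatatgttgtta
mbnl-like-2, second primer: gcggagttatcaataaggcatc
mbnl-like-3, first primer: ctgctggggtgtttgatagata
mbnl-like-3, second primer: ccctcaacagctgtgtcattta
The 12 shared bases were the longest run that primers of different genes had in common among the 30 primer pairs listed, and the next longest run had 10 bases. celf-1 is another CELF gene, and its mRNA level is given with the splicing factors.

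The targets separated the groups as labelled for 4 of the 5 genes. bruli is a neoblast gene, and the neoblast markers smedwi-1 and pcna were also lower in the bruli(RNAi) libraries. How far fewer neoblasts contributed to the bruli difference was not tested. bruli mRNA (comp2592_c0_seq1) stood at 6.33, 3.33 and 4.27 TPM in bruli(RNAi) worms at days 20, 25 and 30, against 96.7, 110 and 113 TPM in mbnl(RNAi) worms and 82.9, 83.1 and 84.9 TPM in control(RNAi) worms. Every bruli(RNAi) library was far below every other library, and the difference of bruli minus mbnl on the log2(TPM+1) scale was -4.28 (standard error 0.16, adjusted p = 7.19e-06 from limma, n = 3 days). mbnl-1 (comp2838_c0_seq1), a member of the muscleblind family, stood at 58.4, 55.6 and 49.0 TPM in bruli(RNAi) worms, against 28.9, 23.4 and 24.3 TPM in mbnl(RNAi) worms. mbnl-like-1 (comp7489_c0_seq1) was at 17.7, 15.6 and 17.5 TPM in bruli(RNAi) worms, against 4.69, 4.01 and 3.31 TPM in mbnl(RNAi) worms. mbnl-like-2 (comp4169_c0_seq1) was at 35.7, 27.6 and 27.3 TPM in bruli(RNAi) worms, against 13.2, 7.63 and 9.51 TPM in mbnl(RNAi) worms. The groups did not overlap for these 3 genes, which were higher in bruli(RNAi) worms by 1.06 (adjusted p = 0.000197), 1.85 (adjusted p = 0.000176) and 1.51 (adjusted p = 0.000146) on the log2 scale. mbnl-like-3 (comp17985_c0_seq1) lay at 2.87, 2.68 and 2.97 TPM in bruli(RNAi) worms, against 2.78, 1.62 and 2.81 TPM in mbnl(RNAi) worms. These ranges overlapped, and the difference of 0.19 (95% interval -0.34 to 0.72, adjusted p = 0.584 from limma) did not pass the test, so that a knockdown of this weakly expressed gene was not detectable.

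Across all transcripts, 3270 of 15510 were lower in bruli(RNAi) than in mbnl(RNAi) worms at an adjusted p under 0.05 (21.1%) and 1002 were higher (6.46%), which makes 4272 in either direction (27.5%), and 6056 had an unadjusted p under 0.05 (39.0%). All bruli(RNAi) libraries lay below all mbnl(RNAi) libraries for 4632 transcripts (29.9%) and above them for 1440 (9.28%). The split depended on the scaling of the libraries. The median transcript was lower in the bruli(RNAi) libraries, with library medians of 4.05, 4.07 and 4.03 on the log2 scale, than in the mbnl(RNAi) libraries, with 4.17, 4.26 and 4.26. The 10 most abundant transcripts took 10.4%, 11.2% and 13.1% of the TPM in the bruli(RNAi) libraries and 9.16%, 8.90% and 8.53% in the mbnl(RNAi) libraries. Rescaling without these transcripts, an alternative chosen after seeing the data, gave 2826 lower and 1237 higher. The median of all differences was -0.11 as deposited, and it was 0.07 once each library had been centred on its own median. After that centring 1756 transcripts were lower (11.3%) and 2474 were higher (16%). All 1756 were among the 3270, and all 1002 transcripts higher as deposited stayed higher. Counts below are therefore given in both scalings, and each list of genes stands beside these shares of all transcripts. Without day 25 the counts as deposited were 1687 lower and 405 higher.

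**Figure D1:**
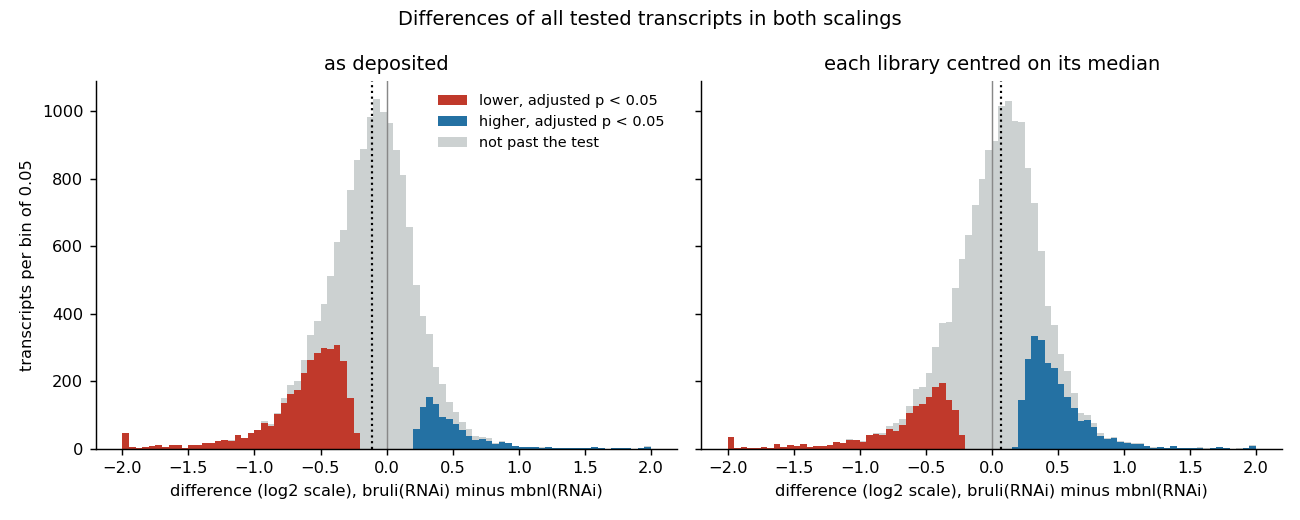
Histograms of the log2 difference, bruli(RNAi) minus mbnl(RNAi), for the 15510 transcripts, as deposited on the left and with each library centred on its median on the right, with values beyond 2 in either direction placed in the end bins. The dotted line, the median of all transcripts, moves to the other side of 0 (-0.11 and 0.07), and the 3270 lower and 1002 higher transcripts become 1756 lower and 2474 higher.

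Markers of neoblasts and of their early epidermal progeny had the largest median difference of the lists. All 7 markers tested were lower in bruli(RNAi) than in mbnl(RNAi) worms in both scalings, without overlap between the libraries. Of all transcripts, 21.1% were lower as deposited and 11.3% after centring, and 29.9% lay lower without overlap. The median difference of the markers was -2.49 (all transcripts -0.11). smedwi-1 (comp659_c0_seq1), a piwi gene of neoblasts, stood at 26.8, 17.2 and 8.63 TPM in bruli(RNAi) worms at days 20, 25 and 30, against 212, 242 and 220 TPM in mbnl(RNAi) worms and 193, 206 and 212 TPM in control(RNAi) worms. The difference was -3.73 (standard error 0.23, adjusted p = 6.62e-05 from limma). pcna (comp1920_c0_seq1), the sliding clamp of DNA replication, stood at 5.63, 3.43 and 5.91 TPM in bruli(RNAi) worms, against 60.2, 63.0 and 64.8 TPM in mbnl(RNAi) worms. Its difference of -3.44 (standard error 0.14, adjusted p = 7.63e-06) was similar at the 3 days, with -3.21, -3.85 and -3.25. The transcription factor gene soxP-2 (comp8483_c0_seq1) was at 4.71, 4.94 and 4.22 TPM in bruli(RNAi) worms, against 13.7, 15.1 and 12.3 TPM in mbnl(RNAi) worms, a difference of -1.38 (adjusted p = 0.000455). p53 (comp5563_c0_seq1), a transcription factor of neoblasts and their early progeny, was at 29.6, 18.4 and 13.1 TPM in bruli(RNAi) worms, against 42.6, 45.0 and 40.8 TPM in mbnl(RNAi) worms, a difference of -1.11 (adjusted p = 0.00249).

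The prog genes mark postmitotic cells that have just left the neoblast state. prog-1 (comp332_c0_seq1) was at 141, 74.4 and 36.6 TPM in bruli(RNAi) worms, against 481, 456 and 323 TPM in mbnl(RNAi) worms and 391, 268 and 381 TPM in control(RNAi) worms. prog-1-1 (comp478_c0_seq1) was at 162, 89.8 and 39.9 TPM in bruli(RNAi) worms, against 573, 529 and 408 TPM in mbnl(RNAi) worms. prog-2-1 (comp69_c0_seq1) was at 1139, 794 and 425 TPM in bruli(RNAi) worms, against 2501, 2665 and 2229 TPM in mbnl(RNAi) worms and 1985, 1695 and 1771 TPM in control(RNAi) worms. The 3 differences were -2.49, -2.56 and -1.76 (adjusted p = 0.000176, 0.000227 and 0.000644 from limma). For prog-2-1 every mbnl(RNAi) library was above every control(RNAi) library, and every bruli(RNAi) library was below both. In the fit to all 9 libraries, mbnl minus control was 0.44 for prog-2-1, 0.28 for prog-1 and 0.31 for prog-1-1. None of these differences from control passed (adjusted p = 0.248, 0.597 and 0.546 from limma).

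The gap of 4 of these markers widened over the time course in the fit to the 6 libraries, though not under every alternative. A linear term for the change of the difference per 10 days, tested over all 15510 transcripts, passed for smedwi-1 (-1.58, adjusted p = 0.00866), prog-1-1 (-1.51, adjusted p = 0.00606), prog-1 (-1.35, adjusted p = 0.0161) and prog-2-1 (-1.25, adjusted p = 0.0161). The daily differences were -2.94, -3.74 and -4.52 for smedwi-1, and prog-2-1 was apart by -1.13, -1.75 and -2.39. The 4 slopes also passed after median centring, with adjusted p of 0.0230 for smedwi-1, 0.0178 for prog-1-1 and 0.0379 for prog-1 and prog-2-1. With a pseudocount of 5 only prog-1-1 of the 4 passed (adjusted p = 0.0276), and smedwi-1 (0.0612), prog-1 (0.0757) and prog-2-1 (0.0522) did not. With all 9 libraries fitted together none of the 4 passed (adjusted p = 0.0747 for smedwi-1, 0.297 for prog-1-1, 0.328 for prog-1 and 0.247 for prog-2-1). This fit has 1 residual degree of freedom, and without the mean-variance trend none of the 15510 transcripts passed.

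**Figure D2:**
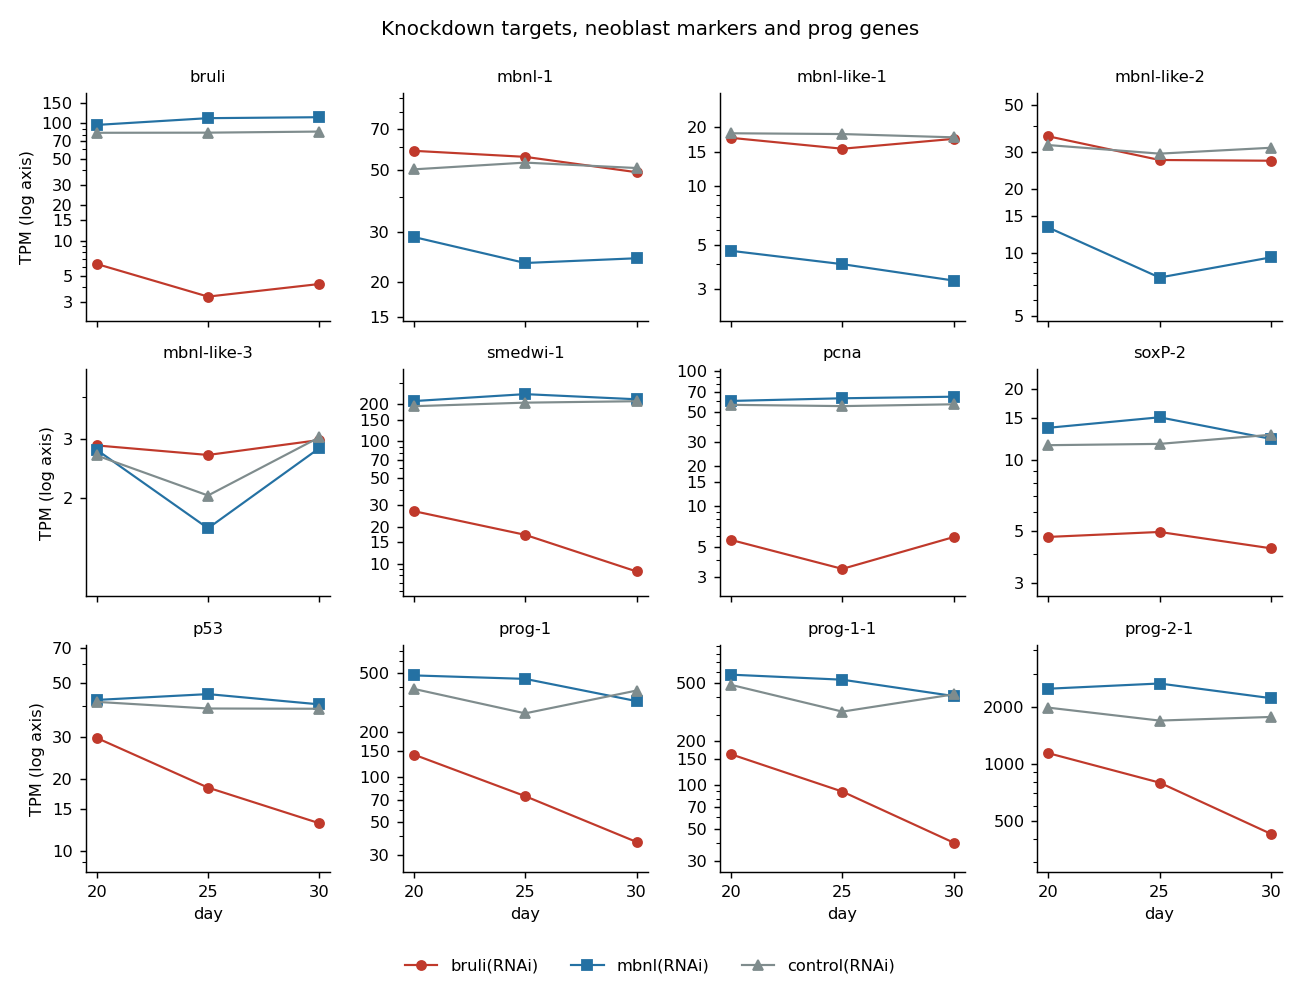
TPM on a log axis against day for the 5 knockdown targets, 4 neoblast markers and 3 prog genes, with 1 library per point (red circles bruli(RNAi), blue squares mbnl(RNAi), grey triangles control(RNAi)). All 7 markers lie lower in bruli(RNAi) than in mbnl(RNAi) worms at each day, and smedwi-1 reaches 8.63 TPM in bruli(RNAi) worms at day 30 against 220 TPM in mbnl(RNAi) worms.

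The share of RBP transcripts that were lower in bruli(RNAi) worms was largest in the classes most enriched in neoblasts. The study's table of RBPs gives each transcript a log2 ratio between X1, the sorted fraction of dividing neoblasts, and Xins, the irradiation-resistant fraction of differentiated cells, both measured in other libraries. Of the 15 tested RBPs with a ratio of 3 or more, 15 were lower in bruli(RNAi) than in mbnl(RNAi) worms (13 after centring). Of the 159 with a ratio between 1 and 3, 139 were lower (98 after centring), and of the 69 between -1 and 1, 33 were lower and 1, the target mbnl-like-1, was higher (7 and 1 after centring). Of the 42 with a ratio of -1 or less, 2 were lower and 4 were higher (1 and 10 after centring). The median differences of these 4 classes were -0.995, -0.53, -0.30 and 0.03, beside -0.11 for all transcripts. The lower shares of the classes were 100%, 87.4%, 47.8% and 4.76%, beside 21.1% of all transcripts. After centring they were 86.7%, 61.6%, 10.1% and 2.38%, beside 11.3%, so that the class between -1 and 1 was near all transcripts. Without day 25 the lower counts were 11, 92, 7 and 1, and they were 14, 111, 16 and 2 without day 30. The first class holds the target bruli, without which 14 of 14 were lower. In the last class the 4 higher transcripts were 2, 1 and 3 without day 20, 25 or 30. The neoblast and progeny markers moved in the same direction with a median of -2.49, and their part in these counts was not tested.

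Among the RBPs with the highest neoblast ratios, the DDX55 homologue comp15229_c0_seq1, a DEAD-box helicase of ribosome assembly in other eukaryotes, was at 5.07, 4.03 and 2.46 TPM in bruli(RNAi) worms, against 11.6, 12.4 and 11.5 TPM in mbnl(RNAi) worms. Its libraries did not overlap, and the difference was -1.44 (adjusted p = 0.00121 from limma). The smallest differences in this class belonged to a DHX8 homologue (comp8001_c0_seq1, -0.57, adjusted p = 0.0164) and a DDX5 homologue (comp10179_c0_seq1, -0.57, adjusted p = 0.0124). The DHX8 homologue did not pass after median centring (adjusted p = 0.0572), and neither passed without day 25 (adjusted p = 0.0989 and 0.0841). The DHX8 homologue had an adjusted p of 0.051 without day 30. Of the RBPs with an even ratio, the MEX3D homologue comp1999_c0_seq1, a KH-domain protein, was lowest relative to mbnl(RNAi) worms, with 40.4, 35.5 and 23.0 TPM in bruli(RNAi) worms against 60.7, 79.5 and 72.8 TPM in mbnl(RNAi) worms (difference -1.11, adjusted p = 0.00193). In the same class the DDX20 homologue comp6961_c0_seq1, a helicase of the SMN complex in other animals, differed by -0.62 (adjusted p = 0.00356). The RBMX2 homologue comp6884_c0_seq1 (-0.61) and the DDX18 homologue comp9142_c0_seq1 (-0.60) passed as deposited (adjusted p = 0.0229 and 0.0251) but not after centring (adjusted p = 0.107 and 0.0777). The RBMX2 homologue also missed the threshold without day 20 (adjusted p = 0.0712) or day 25 (0.0787), and the DDX18 homologue without day 25 (0.0643) or day 30 (0.111).

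One even-ratio RBP without a human hit, comp3800_c0_seq1, had its difference on the mbnl side. It stood at 19.4, 24.3 and 23.4 TPM in bruli(RNAi) worms, against 30.4, 38.4 and 34.4 TPM in mbnl(RNAi) worms and 20.4, 19.1 and 23.2 TPM in control(RNAi) worms. The bruli(RNAi) and control(RNAi) libraries overlapped, and all mbnl(RNAi) libraries were above both. The difference of bruli minus mbnl was -0.60 (adjusted p = 0.00191), with 0.09 for bruli minus control and 0.69 for mbnl minus control.

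Piwi and germ granule transcripts were lower throughout. Piwi proteins bind piRNAs and silence transposons, and Tudor-domain proteins and Vasa-type helicases act with them in granules around the nucleus. All 7 members tested were lower in bruli(RNAi) than in mbnl(RNAi) worms in both scalings and without any 1 day. Their median difference was -0.97. Of all transcripts, 21.1% were lower as deposited and 11.3% after centring. Beside smedwi-1, the PIWIL1 homologue comp1258_c0_seq1 was at 99.0, 92.2 and 81.9 TPM in bruli(RNAi) worms, against 232, 249 and 240 TPM in mbnl(RNAi) worms, a difference of -1.40 (standard error 0.08, adjusted p = 4.59e-05). The DDX4 (Vasa) homologue comp1985_c0_seq1 was at 45.3, 40.0 and 36.7 TPM in bruli(RNAi) worms, against 98.2, 101 and 104 TPM in mbnl(RNAi) worms (-1.30, adjusted p = 8.89e-05). A second DDX4 homologue, comp2082_c0_seq1, was at 42.1, 39.1 and 33.7 TPM in bruli(RNAi) worms, against 74.1, 74.5 and 78.5 TPM in mbnl(RNAi) worms (-0.97, adjusted p = 0.00038). None of these 3 genes overlapped between the groups, yet their levels in bruli(RNAi) worms remained at a larger share of the mbnl(RNAi) levels than that of smedwi-1. The Tudor-domain members differed less, with -0.85 for the TDRD12 homologue (comp4638_c0_seq1), -0.72 for the TDRKH homologue (comp3961_c0_seq1) and -0.66 for the TDRD9 homologue (comp5842_c0_seq1), at adjusted p of 0.00194, 0.00069 and 0.00307.

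The small RNA genes outside the Piwi branch moved less. Of 7 tested, 2 were lower in bruli(RNAi) worms as deposited and 1 after centring, and the median difference was -0.24. These shares, 28.6% and 14.3%, were near the 21.1% and 11.3% of all transcripts. The AGO2 homologue comp1194_c0_seq1, an effector of microRNAs and siRNAs in other animals, was lower in both scalings, with 118, 111 and 107 TPM in bruli(RNAi) worms against 151, 170 and 154 TPM in mbnl(RNAi) worms (-0.50, adjusted p = 0.00216). The DICER1 homologue comp8502_c0_seq1, the enzyme that cuts precursors of small RNAs, was at 9.94, 14.5 and 12.2 TPM in bruli(RNAi) worms, against 13.2, 20.6 and 14.3 TPM in mbnl(RNAi) worms. The libraries overlapped between days, and the difference of -0.36 (adjusted p = 0.0466) did not pass after centring (adjusted p = 0.257), without the day block (adjusted p = 0.199) or without day 25 (adjusted p = 0.335) or day 20 (adjusted p = 0.0747). Without day 25 the list had 1 lower member. The TARBP2 homologue (comp9213_c0_seq1) changed direction over the days, its daily differences being 0.38, -0.35 and -0.57 (adjusted p = 0.486, and 0.0232 without day 20), and the DGCR8 homologue (comp6410_c0_seq1) differed by -0.23 (95% interval -0.49 to 0.02, adjusted p = 0.16).

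**Figure D3:**
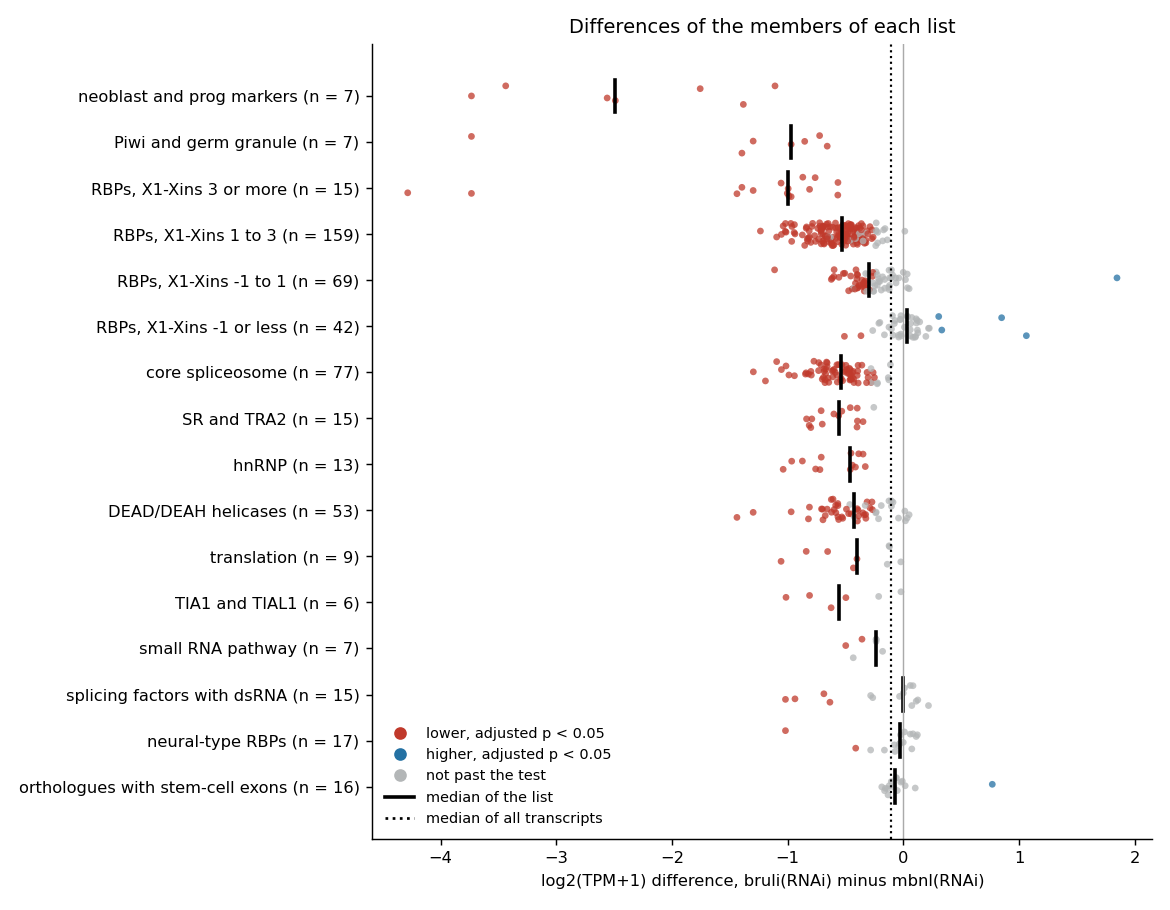
Log2(TPM+1) difference, bruli(RNAi) minus mbnl(RNAi), of each tested member of 16 lists (points, jittered vertically; red lower and blue higher at an adjusted p under 0.05, grey not past the test), with the median of each list as a black bar and that of all transcripts (-0.11) as a dotted line. The medians run from -2.49 for the markers and -0.995 for the RBPs with the highest neoblast ratio to 0.03 for the RBPs of differentiated cells. Lists overlap in membership.

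Transcripts of the core spliceosome, the machine that removes introns, were broadly lower after bruli knockdown than after mbnl knockdown. Of 77 members, 70 were lower and 0 were higher (50 and 0 after centring), and the median difference was -0.54, its daily values being -0.38, -0.58 and -0.66. The lower shares of 90.9% as deposited and 64.9% after centring stood beside 21.1% and 11.3% of all transcripts. The lower count was 47 without day 25 and 60 without day 30. The RBP class with a neoblast ratio between 1 and 3 also holds 21 of the 77 members. The markers of neoblasts and progeny were lower beside them, and their part in this was not tested. The 8 members named for snRNP proteins were lower in both scalings. The Sm ring protein homologue SNRPD1 (comp1826_c0_seq1) was at 31.8, 33.9 and 29.2 TPM in bruli(RNAi) worms, against 72.0, 66.8 and 67.2 TPM in mbnl(RNAi) worms, a difference of -1.09 (adjusted p = 0.000146). The SNRPF homologue (comp1056_c0_seq1) was at 55.4, 54.3 and 41.2 TPM in bruli(RNAi) worms, against 120, 100 and 95.5 TPM in mbnl(RNAi) worms (-1.05, adjusted p = 0.000176). The libraries of both genes were clear of each other at every day. The SNRPA homologue (comp2444_c0_seq1), a U1 snRNP protein outside the study's spliceosome list, was at 17.2, 15.5 and 11.9 TPM in bruli(RNAi) worms, against 34.4, 34.8 and 38.8 TPM in mbnl(RNAi) worms (-1.24, adjusted p = 0.000616). The SART3 homologue (comp6820_c1_seq1), a recycling factor of U4/U6 in other species, differed by -1.02 (adjusted p = 0.000752).

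Other spliceosome members are known here only by a KEGG entry. K12845 (comp1928_c0_seq1) was at 26.8, 21.0 and 21.1 TPM in bruli(RNAi) worms, against 51.9, 62.8 and 58.2 TPM in mbnl(RNAi) worms, and its difference of -1.30 (adjusted p = 0.000336) was the largest of the list. K12834 (comp2656_c0_seq1) differed by -1.19 (adjusted p = 0.00124) and K12852 (comp4747_c0_seq1) by -1.01 (adjusted p = 0.000577). The members nearest 0 were K12865 (comp3489_c0_seq1, -0.11, 95% interval -0.30 to 0.08, adjusted p = 0.363) and K12859 (comp5223_c0_seq1, -0.13, 95% interval -0.30 to 0.05, adjusted p = 0.27).

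SR proteins bind exonic enhancers, and hnRNP proteins often oppose them. Of 15 SR and TRA2 transcripts 14 were lower in bruli(RNAi) worms (10 after centring), and of 13 hnRNP transcripts 13 were (10 after centring), with medians of -0.56 and -0.46. Of these, 13 SR and TRA2 and 9 hnRNP transcripts were already counted in the RBP class with a neoblast ratio between 1 and 3. The median of that class was -0.53. The lower shares of the SR and TRA2 and of the hnRNP transcripts were 93.3% and 100%, beside 21.1% of all transcripts. After centring they were 66.7% and 76.9%, beside 11.3%. A TRA2B homologue (comp4073_c0_seq1) was at 30.3, 30.2 and 25.2 TPM in bruli(RNAi) worms, against 50.3, 54.6 and 50.1 TPM in mbnl(RNAi) worms (-0.84, adjusted p = 0.000509). The SRSF9 homologue (comp1192_c0_seq1) differed by -0.81, a second TRA2B homologue (comp3781_c0_seq1) by -0.80, the TRA2A homologue (comp1760_c0_seq1) by -0.79 and the SRSF10 homologue (comp1695_c0_seq1) by -0.71, with adjusted p between 0.000355 and 0.000505. All 5 were also lower after centring. The SRSF7 homologue (comp2236_c0_seq1) was the only 1 of the 15 that did not pass as deposited (-0.26, adjusted p = 0.0506, and 0.0367 without day 20). Its 84.3, 80.0 and 73.5 TPM in bruli(RNAi) worms were still all below the 94.8, 88.0 and 102 TPM in mbnl(RNAi) worms. The SRSF11 homologue (comp5957_c0_seq1) was lower as deposited only (-0.35, adjusted p = 0.0221 and 0.148 after centring), and not without day 25 (0.0949) or day 30 (0.0972). Without day 25 the SR and TRA2 count was 9.

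Among the hnRNP transcripts, the HNRNPA2B1 homologue (comp986_c0_seq1) had tight values, with 127, 123 and 125 TPM in bruli(RNAi) worms against 243, 243 and 249 TPM in mbnl(RNAi) worms and 219, 211 and 207 TPM in control(RNAi) worms. The groups stood far apart relative to their spread (-0.96, standard error 0.07, adjusted p = 8.89e-05). The largest difference belonged to an HNRNPK homologue (comp2111_c0_seq1), at 41.2, 41.2 and 33.0 TPM in bruli(RNAi) worms against 70.4, 86.5 and 82.9 TPM in mbnl(RNAi) worms (-1.04, adjusted p = 0.00048). An HNRNPL homologue (comp1327_c0_seq1) differed by -0.87, the HNRNPF homologue (comp1957_c0_seq1) by -0.76 and a second HNRNPK homologue (comp1998_c0_seq1) by -0.72 (adjusted p = 0.000486, 0.000483 and 0.000674). The HNRNPDL homologue (comp3582_c0_seq1, -0.33) and a second HNRNPL homologue (comp5442_c1_seq1, -0.35) passed as deposited (adjusted p = 0.0186 and 0.0263) but not after centring (adjusted p = 0.149 and 0.172). Both also missed it without day 25 (adjusted p = 0.132 and 0.229) and without day 30 (adjusted p = 0.0726 and 0.067).

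DEAD-box and DEAH-box helicases remodel RNA in splicing, translation and ribosome assembly. Of 53 tested, 37 were lower in bruli(RNAi) worms and 0 were higher (19 and 0 after centring), with a median of -0.42. These lower shares, 69.8% and 35.8%, stood beside 21.1% and 11.3% of all transcripts. The lower count was 16 without day 25 and 21 without day 30. Of the 56 helicases listed, 30 also belong to the RBP class with a neoblast ratio between 1 and 3. Beside the DDX55 and DDX4 homologues, the DHX33 homologue (comp16988_c0_seq1) was at 4.58, 4.73 and 4.28 TPM in bruli(RNAi) worms, against 8.40, 8.15 and 9.81 TPM in mbnl(RNAi) worms (-0.82, adjusted p = 0.00622). Paralogues with the same best human hit could lie far apart. The DDX5 homologue comp14392_c0_seq1 was at 4.15, 3.86 and 3.38 TPM in bruli(RNAi) worms, against 6.76, 8.56 and 7.0 TPM in mbnl(RNAi) worms (-0.81, adjusted p = 0.00891, and 0.0791 without day 25). The far more abundant DDX5 homologue comp594_c0_seq1 was at 627, 586 and 550 TPM in bruli(RNAi) worms, against 623, 575 and 549 TPM in mbnl(RNAi) worms. Its libraries were matched at every day (0.01, 95% interval -0.14 to 0.17, adjusted p = 0.91), while control(RNAi) worms had 655, 650 and 689 TPM. The DDX3X homologue (comp2411_c0_seq1) also lay near 0 (0.02, 95% interval -0.14 to 0.18, adjusted p = 0.876).

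Translation factors were mixed. Of 9 tested, 5 were lower in bruli(RNAi) worms (4 after centring) and 0 were higher, with a median of -0.40. The lower shares of 55.6% and 44.4% stood beside 21.1% and 11.3% of all transcripts. RPS3 (comp269_c0_seq1), a protein of the small ribosomal subunit, was at 1190, 946 and 870 TPM in bruli(RNAi) worms, against 1544, 1583 and 1564 TPM in mbnl(RNAi) worms (-0.65, adjusted p = 0.00264). An EIF3G homologue (comp5500_c0_seq1), a subunit of an initiation factor, was at 29.5, 30.7 and 21.8 TPM in bruli(RNAi) worms, against 46.2, 48.8 and 52.7 TPM in mbnl(RNAi) worms (-0.84, adjusted p = 0.00202). Both genes were below their mbnl(RNAi) counterparts at every day. The EIF3B homologue (comp2302_c0_seq1, -0.43, adjusted p = 0.00641) was lower in both scalings and the EIF4H homologue (comp4137_c0_seq1, -0.40, adjusted p = 0.0111) as deposited only (0.0996 after centring and 0.141 without day 25). A weakly expressed PABPC1 homologue with a high neoblast ratio (comp11729_c0_seq1) was at 3.44, 3.39 and 1.88 TPM in bruli(RNAi) worms, against 5.92, 6.74 and 8.44 TPM in mbnl(RNAi) worms (-1.06, adjusted p = 0.0109). Another PABPC1 homologue (comp6574_c0_seq1) was at 42.3, 45.7 and 43.7 TPM in bruli(RNAi) worms, against 42.8, 43.9 and 47.1 TPM in mbnl(RNAi) worms (-0.02, adjusted p = 0.866). The EIF1AD homologue (comp8143_c0_seq1) and a second EIF3G homologue (comp15937_c0_seq1) had differences of -0.12 and -0.14 (adjusted p = 0.397 and 0.577).

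The families of splicing regulators for which the study made double-stranded RNA differed from member to member. Of 15 tested genes, 4 were lower in bruli(RNAi) worms in both scalings and in each fit without 1 day, and 0 were higher as deposited (3 after centring). The lower share of 26.7% stood beside 21.1% of all transcripts as deposited and 11.3% after centring. Of all 15510 transcripts, 1002 were higher as deposited and 2474 after centring. Whether the list differed from all transcripts was not tested. The median difference of the 15 was 0.00. ptbp-2 (comp2799_c0_seq1), a homologue of the polypyrimidine tract binding proteins, was at 64.6, 57.9 and 51.3 TPM in bruli(RNAi) worms, against 109, 115 and 109 TPM in mbnl(RNAi) worms (-0.94, adjusted p = 0.000268). ptbp-3 (comp3450_c0_seq1) was at 23.1, 20.5 and 19.1 TPM in bruli(RNAi) worms, against 32.1, 35.7 and 34.8 TPM in mbnl(RNAi) worms (-0.69, adjusted p = 0.00214). ptbp-1 (comp1868_c0_seq1) was at 73.3, 67.3 and 66.7 TPM in bruli(RNAi) worms, against 109, 103 and 111 TPM in mbnl(RNAi) worms (-0.63, adjusted p = 0.000788). These 3 ptbp genes did not overlap between the groups. ptbp-4 had values of 8.73, 7.95 and 6.78 TPM in bruli(RNAi) worms, against 10.2, 9.05 and 9.41 TPM in mbnl(RNAi) worms (-0.26, 95% interval -0.57 to 0.05, adjusted p = 0.189).

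rbfox-1 (comp6567_c0_seq1), which belongs to a family of neuronal and muscle splicing factors in vertebrates, was at 9.31, 9.59 and 8.12 TPM in bruli(RNAi) worms, against 17.7, 21.3 and 18.8 TPM in mbnl(RNAi) worms and 16.3, 16.5 and 18.7 TPM in control(RNAi) worms. Its difference of -1.02 (adjusted p = 0.000828) was the largest of the 15 genes. rbfox-2 (comp9461_c0_seq1) was at 17.9, 18.9 and 17.0 TPM in bruli(RNAi) worms, against 16.6, 16.8 and 20.2 TPM in mbnl(RNAi) worms (0.01, 95% interval -0.25 to 0.27, adjusted p = 0.959). rbfox-3 differed by 0.07 (95% interval -0.14 to 0.29, adjusted p = 0.611). rbfox-1, ptbp-2 and ptbp-3 have neoblast ratios between 1 and 3, while rbfox-2, rbfox-3 and ptbp-4 have ratios of -1 or less. ptbp-1 is in none of the ratio classes. Whether members of a family differed from each other was not tested, nor was the part of the ratio.

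The remaining CELF genes did not follow bruli. celf-1, whose second primer shares 12 bases with that of bruli, was at 12.2, 13.5 and 13.9 TPM in bruli(RNAi) worms, against 15.8, 12.9 and 21.1 TPM in mbnl(RNAi) worms and 15.1, 13.7 and 13.8 TPM in control(RNAi) worms. The libraries overlapped, and the difference of -0.28 had a 95% interval from -0.59 to 0.03 (adjusted p = 0.163). celf-2 differed by 0.06 (95% interval -0.25 to 0.37, adjusted p = 0.78) and celf-3 by -0.03 (95% interval -0.37 to 0.31, adjusted p = 0.896). Of the nova genes, homologues of neuronal regulators, nova-3 (comp5632_c0_seq1) was at 32.7, 37.6 and 35.5 TPM in bruli(RNAi) worms, against 34.0, 36.3 and 35.3 TPM in mbnl(RNAi) worms (0.00, 95% interval -0.18 to 0.18). The 3 genes higher only after centring were nova-1 (0.26, adjusted p = 0.0238) and the epithelial-type regulators esrp-1 (0.30, adjusted p = 0.0213) and esrp-2 (0.39, adjusted p = 0.0144). Their differences as deposited were 0.08, 0.13 and 0.22 (adjusted p = 0.408, 0.309 and 0.131), and these 3, ptbp-4, rbfox-3, celf-1, celf-2 and celf-3 are given to complete the families.

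**Figure D4:**
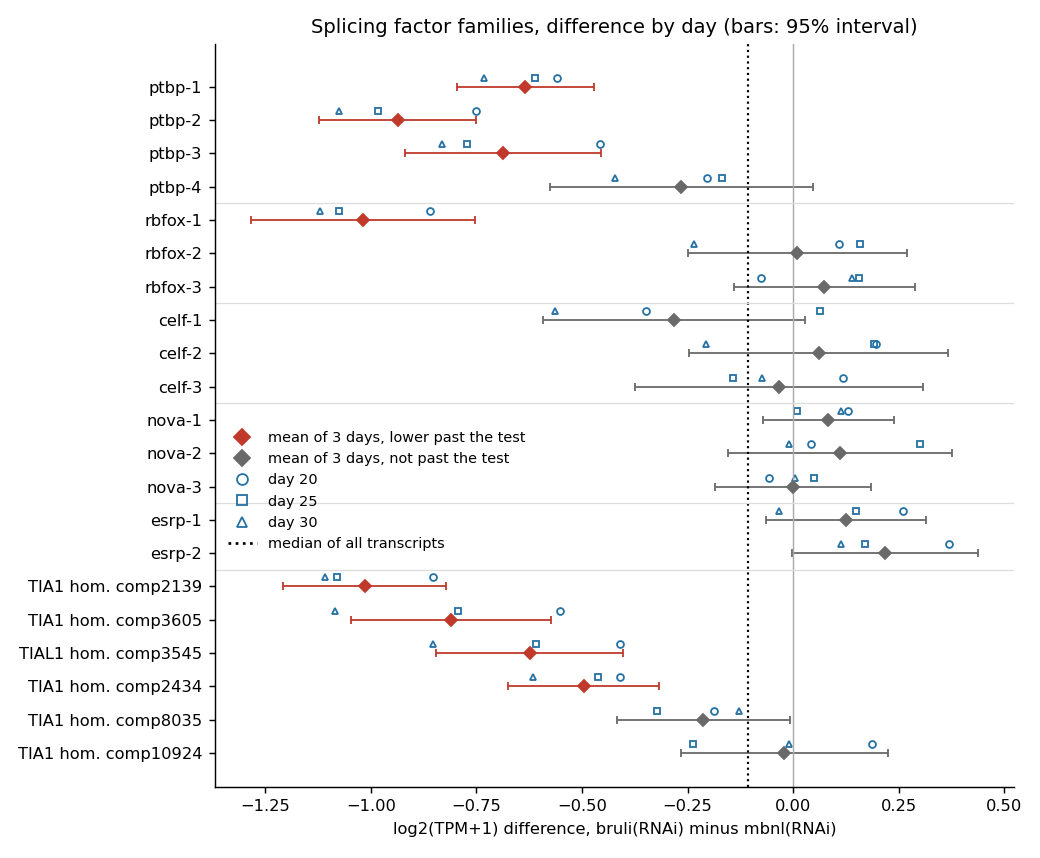
Log2(TPM+1) difference, bruli(RNAi) minus mbnl(RNAi), of 15 splicing factors and 6 TIA1 or TIAL1 homologues, with diamonds for the mean of 3 days, bars for the 95% interval of the moderated fit and open symbols for single days. ptbp-1, ptbp-2, ptbp-3, rbfox-1 and 4 TIA homologues lie below 0 at each day (red), and the other members straddle 0 or have an adjusted p above 0.05 (grey).

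The TIA1 and TIAL1 homologues, RBPs that bind uridine-rich stretches near 5′ splice sites and in stress granules in mammals, were spread in the same manner. Of 6 tested, 4 were lower in bruli(RNAi) worms in both scalings and without any 1 day, with a median of -0.56. This share of 66.7% stood beside 21.1% of all transcripts as deposited and 11.3% after centring. The 4 lower members have neoblast ratios of 1 or more, and comp8035_c0_seq1 and comp10924_c0_seq1 have lower ratios. The part of the ratio was not tested. comp2139_c0_seq1 was at 33.5, 29.9 and 28.1 TPM in bruli(RNAi) worms, against 61.2, 64.3 and 61.8 TPM in mbnl(RNAi) worms (-1.01, adjusted p = 0.000217). The differences of comp3605_c0_seq1 (-0.81, adjusted p = 0.00124), of the TIAL1 homologue comp3545_c0_seq1 (-0.62, adjusted p = 0.00258) and of comp2434_c0_seq1 (-0.50, adjusted p = 0.00269) were smaller. comp8035_c0_seq1 differed by -0.21 (adjusted p = 0.115). comp10924_c0_seq1 had 21.2, 20.1 and 23.9 TPM in bruli(RNAi) worms and 18.5, 23.9 and 24.1 TPM in mbnl(RNAi) worms, a difference of -0.02 (95% interval -0.27 to 0.23).

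A smaller share of neural-type RBPs and of RBPs of differentiated cells was lower than of all transcripts. These shares were 11.8% and 4.76% as deposited, beside 21.1% of all transcripts, and 5.88% and 2.38% after centring, beside 11.3%. Of the differentiated-cell RBPs 9.52% were higher as deposited, beside 6.46% of all transcripts. Whether either list differed from all transcripts was not tested. Of 17 neural-type RBPs 2 were lower and 0 higher (1 and 1 after centring), with a median of -0.03. Besides rbfox-1 the lower one was an ELAVL4 homologue (comp10994_c0_seq1), of the family of neuronal Hu proteins, at 12.2, 13.4 and 11.2 TPM in bruli(RNAi) worms against 14.4, 19.2 and 16.6 TPM in mbnl(RNAi) worms (-0.41, adjusted p = 0.0296), and it did not pass after centring (adjusted p = 0.127), without day 25 (0.197) or without day 30 (0.106).

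In the class of differentiated-cell RBPs, the RBPMS homologue (comp4296_c0_seq1) stood apart in mbnl(RNAi) worms. It was at 46.9, 42.4 and 48.8 TPM in bruli(RNAi) worms, against 63.3, 61.6 and 73.0 TPM in mbnl(RNAi) worms and 39.4, 42.3 and 46.9 TPM in control(RNAi) worms. All mbnl(RNAi) libraries were above all others. The difference of bruli minus mbnl was -0.51 (adjusted p = 0.00206, and 0.0108 after centring). It was 0.10 for bruli minus control and 0.61 for mbnl minus control. The HDLBP homologue (comp553_c0_seq1), a protein with many KH domains, was at 402, 425 and 370 TPM in bruli(RNAi) worms, against 476, 535 and 533 TPM in mbnl(RNAi) worms and 501, 590 and 627 TPM in control(RNAi) worms (-0.37, adjusted p = 0.00906, 0.077 after centring and 0.0667 without day 25). Of the 4 higher transcripts 1 was the target mbnl-1. An A1CF homologue (comp2228_c0_seq1), a cofactor of RNA editing in mammals, was at 112, 112 and 108 TPM in bruli(RNAi) worms, against 84.5, 93.1 and 90.3 TPM in mbnl(RNAi) worms (0.31, adjusted p = 0.0126). A QKI homologue (comp11601_c0_seq1), of a family of STAR-domain splicing factors, was at 19.2, 18.1 and 18.2 TPM in bruli(RNAi) worms, against 14.8, 13.7 and 15 TPM in mbnl(RNAi) worms (0.33, adjusted p = 0.041). Without day 25 the A1CF homologue had an adjusted p of 0.08 and the QKI homologue one of 0.244. The QKI homologue also missed the threshold without day 20 (adjusted p = 0.0783) or day 30 (adjusted p = 0.071). The fourth, an SF3B6 homologue (comp11998_c0_seq1), was outside the rule for named genes because its sign changed. It stood at 7.55, 9.89 and 7.83 TPM in bruli(RNAi) worms, against 2.93, 2.98 and 7.98 TPM in mbnl(RNAi) worms (0.85, adjusted p = 0.0409), and its adjusted p was 0.0860 without day 20 and 0.221 without day 25. Another A1CF homologue (comp10996_c0_seq1) differed by -0.02 (95% interval -0.24 to 0.21).

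A further list holds planarian genes from orthologous groups in which an exon differs in use between stem cells and other cells in planarians and in humans, and few of its total mRNA levels passed the test. The target mbnl-1 also belongs to such a group and was left out of this list. Of 16 tested, 0 were lower and 1 was higher in bruli(RNAi) worms (0 and 2 after centring), and the median difference was -0.07. Of all transcripts, 21.1% were lower and 6.46% higher as deposited, and 11.3% and 16% after centring. At an unadjusted p under 0.05, 1 of the 16 was lower and 1 was higher. The higher one was an ANK3 homologue (comp3277_c0_seq1). It was at 58.2, 83.8 and 78.8 TPM in bruli(RNAi) worms, against 36.0, 46.3 and 45.3 TPM in mbnl(RNAi) worms and 54.4, 49.3 and 44.3 TPM in control(RNAi) worms. The bruli(RNAi) libraries were above all others, and the difference of bruli minus mbnl was 0.77 (standard error 0.08, adjusted p = 0.000454 from limma). It was 0.56 for bruli minus control and -0.21 for mbnl minus control. The second ANK3 homologue of the list (comp1432_c0_seq1), named after its values were seen, was at 95.7, 89.1 and 83.9 TPM in bruli(RNAi) worms, against 79.4, 84.0 and 86.4 TPM in mbnl(RNAi) worms. Its difference was 0.10 as deposited (adjusted p = 0.381) and passed only after centring (adjusted p = 0.0222). The PHKA2 homologue (comp6919_c0_seq1, -0.01, 95% interval -0.23 to 0.22) and the EPB41L5 homologue (comp4114_c0_seq1, 0.02, 95% interval -0.18 to 0.21) lay nearest 0. TPM of the whole transcript does not measure the use of an exon.

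The largest differences among transcripts with no annotation here had opposite sides. comp2548_c0_seq1 was at 3.99, 9.53 and 5.87 TPM in bruli(RNAi) worms, against 59.2, 90.7 and 77.7 TPM in mbnl(RNAi) worms and 58.3, 93.8 and 67.8 TPM in control(RNAi) worms (-3.41, adjusted p = 5.21e-06). comp2787_c0_seq1 was at 12, 6.80 and 3.19 TPM in bruli(RNAi) worms, against 59.5, 60.2 and 63.0 TPM in mbnl(RNAi) worms (-3.04, adjusted p = 0.000213). In both the bruli(RNAi) libraries stood apart from the other 2 groups. comp709_c0_seq1 was at 481, 647 and 480 TPM in bruli(RNAi) worms, against 64.6, 23.9 and 3.90 TPM in mbnl(RNAi) worms and 387, 500 and 500 TPM in control(RNAi) worms (4.73, standard error 0.52, adjusted p = 0.000675). comp1548_c0_seq1 was at 32.7, 49.7 and 37.8 TPM in bruli(RNAi) worms, against 7.17, 3.07 and 1.07 TPM in mbnl(RNAi) worms and 22.5, 38.2 and 40.7 TPM in control(RNAi) worms (3.31, adjusted p = 0.000482). For these the mbnl(RNAi) libraries stood apart. The difference of comp709_c0_seq1 was 2.88, 4.70 and 6.62 at the successive days, a change of 3.74 per 10 days (adjusted p = 5.84e-05).

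**Figure D5:**
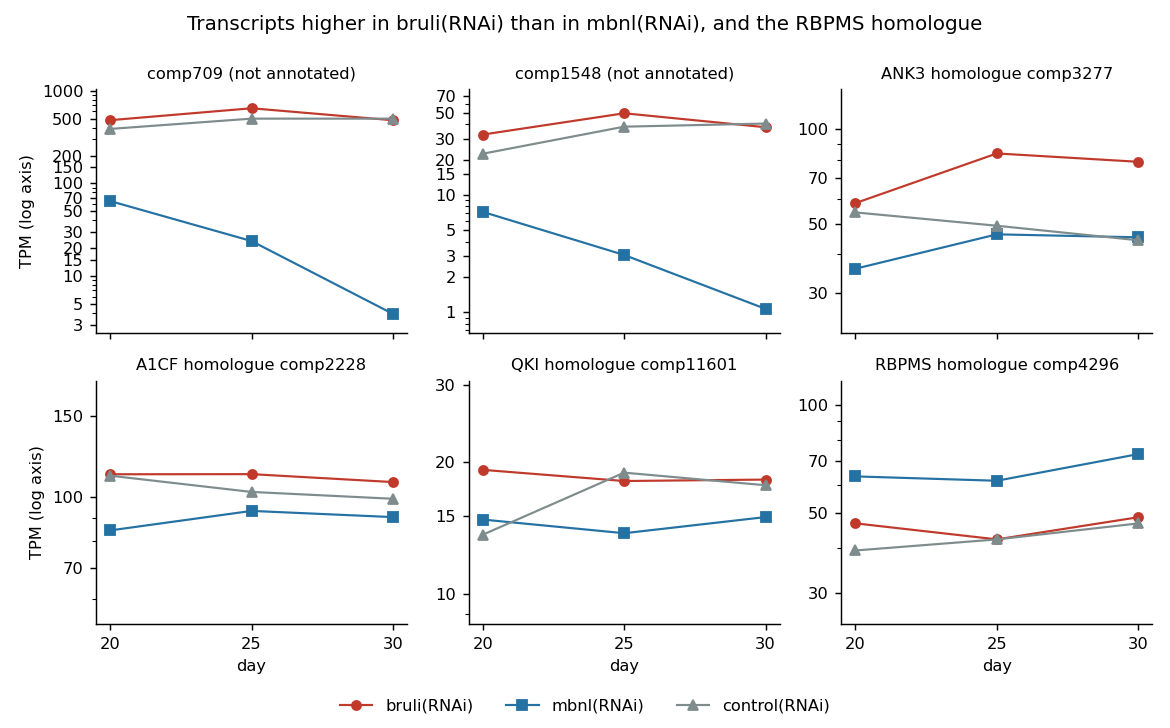
TPM on a log axis against day, 1 library per point, for 5 transcripts that were higher in bruli(RNAi) (red circles) than in mbnl(RNAi) worms (blue squares) and for the RBPMS homologue, with control(RNAi) worms as grey triangles. comp709 stands at 3.90 TPM in mbnl(RNAi) worms at day 30 against 480 TPM in bruli(RNAi) worms, while the RBPMS homologue is highest in mbnl(RNAi) worms at each day (61.6 to 73.0 TPM).

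Single days, which have 1 library per group and therefore no test, showed more lower transcripts as the time course went on. A difference below -0.7 was seen for 830 transcripts at day 20 (5.35%), 1428 at day 25 (9.21%) and 2037 at day 30 (13.1%), while one above 0.7 was seen for 426 (2.75%), 346 (2.23%) and 417 (2.69%). At all 3 days 391 transcripts were below -0.7 (2.52%) and 46 were above 0.7 (0.297%). The median of all differences was -0.06, -0.11 and -0.18 at the 3 days. After median centring the lower counts were 555, 709 and 1036 at the successive days, and the higher counts were 638, 770 and 995, so that more transcripts lay past the threshold in both directions at later days.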

How the data were processed

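Whole-worm poly(A) RNA libraries (TruSeq RNA v2) were sequenced by the authors, who trimmed the reads, discarded those from rRNA, aligned the remainder to a reference transcriptome with Bowtie2 2.1.0 and counted them with HTSeq 0.6.1p1. The submitters' processing notes also name CASAVA 1.8.2 without a role. The authors deposited TPM values, in which each column sums to 1000000 over 26562 transcripts. How counts became TPM is not given in the sources used here, and depth cannot be recovered from TPM, so no counting error was computed. The precision of a value rests on the spread over days alone.

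Values were analysed as log2(TPM+1), so that differences understate changes of weakly expressed genes. A model of knockdown and day was fitted to the 6 libraries in limma 3.58.1 (R 4.3.3) with a mean-variance trend, leaving 2 residual degrees of freedom and 6.88 prior ones, and Benjamini-Hochberg adjustment ran over all 15510 transcripts at 0.05. The mean filter keeps a transcript through the group in which it is high. A second fit added a linear change of the difference with day. Days are the replicates, and nothing states whether they are separate cohorts of worms, so p-values measure only the spread between these libraries, which may be technical. The methods pair each knockdown with its day. Once group means were subtracted, same-day libraries correlated at 0.152, 0.257 and 0.137, and libraries of different days at -0.19 to 0.01, so the day was a block. Both procedures were tested on simulated data. There the first fit found 89% of differences of 1 on the log2 scale and 32% of differences of 0.5, with 10 false calls. Differences of about 0.5 or less that did not pass are therefore not shown to be absent.

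Transcripts have assembly names. Gene names come from the study's tables of RBPs (best human hit), of spliceosome proteins (KEGG entries), of splicing factors and of orthologues with stem-cell exons. The 7 marker names come from an earlier analysis of these data, which read their identifiers from a picture, and could contain reading errors. Paralogues could share reads. Members and lists were chosen with earlier results of these data known. Named are the targets, the 7 markers, all members of lists with 6 or fewer tested, up to 5 called members of longer lists in each direction with the largest differences of 1 sign at all 3 days and the 2 nearest 0, called splicing factors and 2 transcripts without annotation in each direction. Exceptions are stated beside them. Alternatives were other pseudocounts, filters, scalings and fits, and leaving out each day. Rescaling without the 10 most abundant transcripts was chosen after seeing the data. Figures used Python 3.11.15 and matplotlib 3.10.9. The Smed-H2B and Smedwi-2 libraries, 1 each without a day, were not used here.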

Additional observations from a re-analysis of the deposited data

Results flagged for a closer look

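The test of a change of the difference with day flagged 20 transcripts whose difference of bruli minus mbnl fell over days 20 to 30 and 10 whose difference rose, of 15510, with 2160 at an unadjusted p under 0.05. Among the named genes, the slope per 10 days was -1.58 for smedwi-1, -1.51 for prog-1-1, -1.35 for prog-1 and -1.25 for prog-2-1. It was -1.72 for comp2787_c0_seq1 and 3.74 for comp709_c0_seq1. When all 9 libraries were fitted together, comp709_c0_seq1 still passed (adjusted p = 0.00421 from limma) and the other 5 did not (adjusted p = 0.0747 for smedwi-1 and comp2787_c0_seq1, 0.297 for prog-1-1, 0.328 for prog-1 and 0.247 for prog-2-1). Without the trend all 6 had an adjusted p of 0.379.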

How the results depend on the processing

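Of the 72 named transcripts that passed the test, 57 passed with the same sign under every alternative, and no called difference changed sign. The 3270 lower and 1002 higher transcripts became 1756 and 2474 with median centring, 2008 and 1652 with quantile normalization and 2006 and 394 without the trend. Leaving out 1 day gave 1687 to 3817 lower and 405 to 1148 higher. Without the replicate block the counts were 2781 lower and 651 higher. Rescaling without the 10 most abundant transcripts, chosen after seeing the data, gave 2826 and 1237, with a median difference of -0.07. Of the 90 named transcripts, 14 lost their call without the trend, 10 with median centring and 14 without day 25. The DICER1 and ELAVL4 homologues (adjusted p = 0.199 and 0.0501 from limma) lost theirs without the block. Past a threshold of 0.5 in place of 0.7, 1714, 2755 and 3602 transcripts were lower at days 20, 25 and 30 and 860, 796 and 903 higher, and past 1 the counts were 313, 504 and 853 lower and 161, 109 and 171 higher. A pseudocount of 5 gave 264, 586 and 959 lower and 93, 146 and 189 higher. Median centring gave 709 and 1036 lower and 770 and 995 higher at days 25 and 30, and the filter in every library gave 230 higher at day 20. The 20 falling and 10 rising slopes became 5 and 2 with a pseudocount of 5, 12 and 9 with median centring, 1 and 1 with all 9 libraries and 0 and 0 without the trend (limma, 1772 at an unadjusted p under 0.05). Apart from the settings whose construction changes the scale, the filter or the number of libraries, the cause was not tested. Depth behind the TPM values is unknown, so the counting error of weakly expressed transcripts such as mbnl-like-3 could not be given.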
